A study of Mus musculus with 5 samples.

Results

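The 33 genes described here encode the machinery that brings proteins into mitochondria and folds them there. They were chosen by name from a table of raw counts for 12370 gene symbols. The rule took every symbol that begins with Timm or Tomm and a digit, which gave 14 and 9 genes, and 10 further genes named one by one (Hspd1, Hspe1, Hspa9, Phb, Phb2, Pmpca, Pmpcb, Samm50, Grpel1 and Dnajc19). An eleventh named symbol, Pam16, was not analysed here. All 33 genes passed the filter on low counts, with 218 to 15866 counts per gene summed over the libraries.

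RNA of whole lenses from mouse embryos at embryonic day 14 was sequenced in 5 libraries. The 2 knockout libraries came from embryos with loxP-flanked N-myc alleles on both chromosomes and 1 copy of Mlr10-Cre, a transgene that expresses Cre recombinase in lens cells. Embryos without Cre gave the 3 control libraries. The series' design text calls the controls WT, while the protocol describes them as carrying loxP-flanked N-myc, with or without loxP-flanked c-myc, and the sources used here do not assign either genotype to a single control library. Lenses of single animals were pooled before extraction, and the number of animals in a pool is not given. Only the knockout libraries carried the transgene, so the effects of Cre and of the deletion cannot be told apart.

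Nearly all mitochondrial proteins are made in the cytosol. They enter through the TOM complex of the outer membrane, and from there the TIM23 complex takes proteins with a presequence, small chaperones of the intermembrane space carry hydrophobic proteins across, and the TIM22 complex inserts metabolite carriers into the inner membrane. An ATP-driven motor built on the matrix Hsp70 protein pulls presequence proteins inward, a peptidase removes the presequence, and the Hsp60 and Hsp10 chaperonin folds the product. Several genes of mitochondrial chaperones and import are known as targets of MYC proteins in other cells. In the lens, fibre cells remove their mitochondria during terminal differentiation, whereas epithelial cells keep them.

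The libraries held 13214989 and 13746416 counts in knockout replicates 1 and 2, and 13162384 to 13663255 in the controls. Mycn, the gene for N-myc, stood at 57.3 and 81.9 CPM (counts scaled to a common library size, with TMM factors for composition) in the knockout lenses, against 162, 148 and 140.3 CPM in the controls (log2 fold change -1.11, SE 0.15, edgeR adjusted p = 0.0097, and 0.056 without control replicate 2). All 15 lens markers examined were detected. They summed to 80418 and 94247 CPM in the knockouts and 86724 to 108309 CPM in the controls. Knockout replicate 1 stood apart: 9 skeletal muscle markers summed to 2229 CPM there and 90.8 CPM in knockout replicate 2, against 63.5 to 292 CPM in the controls, and 13 periocular mesenchyme markers to 2526 and 789 CPM, against 616 to 907 CPM. On the first principal component, with 62.3% of the variance, the knockouts lay at -50.3 and -11.9 and the controls between 19.7 and 21.4.

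Of the 33 import and chaperone genes, 7 were lower in the knockout lenses and 0 were higher (edgeR quasi-likelihood test, adjusted p under 0.05 over all genes tested). They were Hspd1, Hspa9, Tomm70a, Tomm20, Phb, Pmpca and Phb2, which were 1.25-fold to 1.66-fold lower. These 7 made up 21.2% of the 33 genes, while 8.51% of the 12035 genes tested in the whole table were called lower and 7.98% higher. Among the genes with a positive fold change, 0 had an unadjusted p under 0.05, and DESeq2 and limma-voom also called 0 higher, while calling 9.36% and 6.81% of the whole table higher. Fold changes were below 0 on the log2 scale for 26 of the 33 genes, with a median of -0.22, against 49.8% below 0 and a median of 0.00 over all genes tested. Both knockout libraries lay below every control library for 15 of the 33 genes. The same was true of 27% of the whole table, and the reverse order, seen for 1 of the 33, of 25.5%.

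Which genes were called varied with the libraries kept. Without control replicate 1, 7 of the 33 genes were called lower, 6 of them among the 7 above (7.8% of the whole table), and without knockout replicate 2, 7 were called lower, 5 of them among the 7 (10.7%). Leaving out control replicate 2 or control replicate 3 left 0 of the 33 genes called by edgeR, with 10 at an unadjusted p under 0.05 in each case, and leaving out knockout replicate 1 left Hspd1 alone. The same omissions reduced the genes called lower over the whole table to 0.142%, 0.875% and 0.937%. In these fits without 1 of the controls (replicate 2, then 3), Hspd1 had log2 fold changes of -0.71 and -0.70 (edgeR adjusted p = 0.066 and 0.053) and Hspa9 had -0.60 and -0.57 (edgeR adjusted p = 0.067 and 0.056). With all libraries, 12 of the 33 genes had an unadjusted edgeR p under 0.05, a share near the 35.8% of all genes tested. That share is not given here for the fits without control replicate 2 or 3, so their 10 genes have no comparison. All 7 genes kept a negative fold change in each of the 13 alternative fits. Without knockout replicate 1 the log2 fold change of Hspd1 was -0.54 (edgeR adjusted p = 0.041) and the median over the 33 genes was -0.10. When a trend on length and GC was first taken out of each library, 7 of the 33 genes and 5.74% of the whole table were called lower. Of the 7, 6 were those above, but 20 rather than 26 fold changes were below 0 and the median was -0.09.

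**Figure D1:**
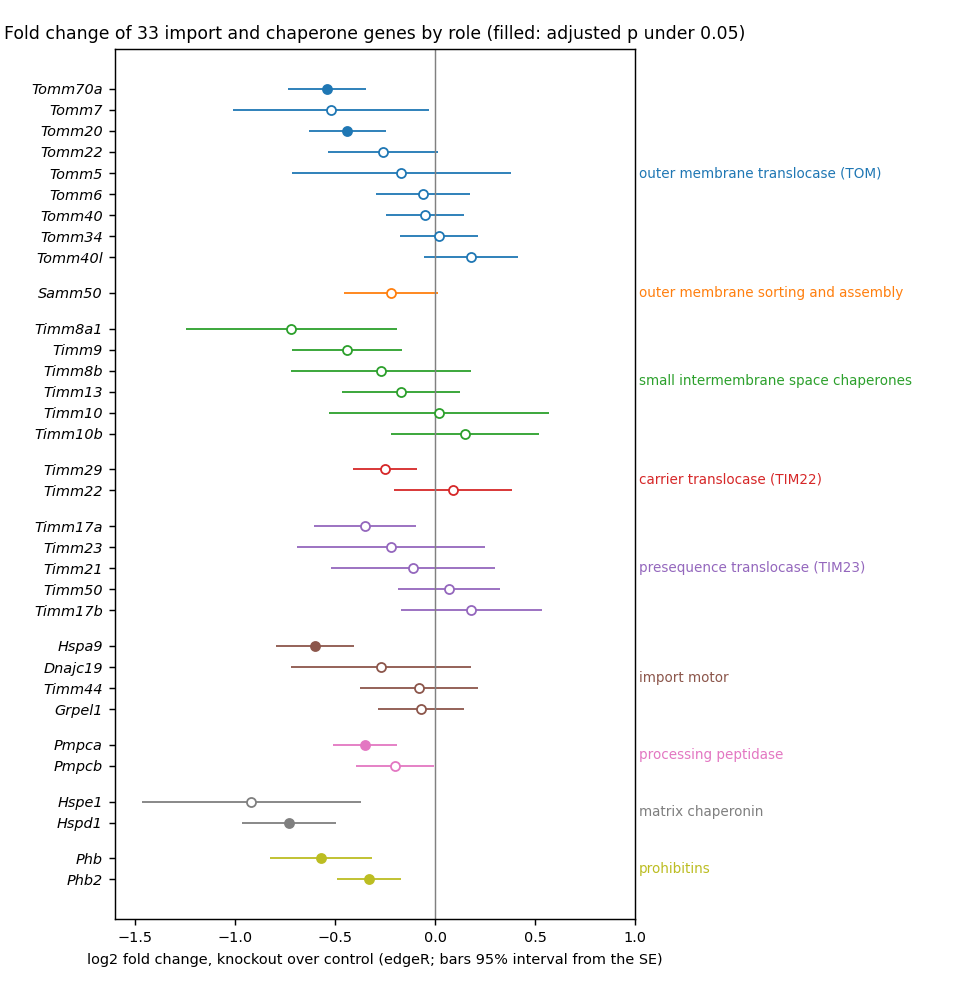
Log2 fold changes of the 33 genes, knockout over control, grouped by role from the outer membrane at the top to the inner membrane at the bottom. Points are edgeR estimates, bars are intervals of 95% from the standard error, and filled points have an adjusted p under 0.05. The 7 filled points lie between -0.73 and -0.33 and belong to Tomm70a and Tomm20, the motor, the processing peptidase, the chaperonin and the prohibitins.

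Summed over the 33 genes, the level was 1191 and 1384 CPM in the knockout libraries, against 1623, 1735 and 1683 CPM in the controls. As a share of all counts, without further scaling, the genes took 0.126% and 0.14% in the knockouts and 0.157%, 0.167% and 0.168% in the controls. A handful of abundant transcripts carried this difference. Hspd1 accounted for 25.3% and Hspa9 for 24% of the summed CPM difference between the group means, and with Tomm70a, Pmpca and Tomm20 the 5 genes accounted for 78.2%. The 26 genes that were not called summed to 529 and 600.2 CPM in the knockouts and 587 to 676 CPM in the controls, so these ranges overlapped. These 26 were set apart by a test on the same libraries, so the overlap is partly built in. Their log2 fold changes were negative for 19 and positive for 7, with a median of -0.17. The lens was measured in bulk, and fewer cells of a type and less RNA per cell cannot be told apart.

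Of the 9 genes in the TOM group, 2 (22.2%) were called lower, against 8.51% of the whole table, and 7 had a negative fold change. Both called genes encode receptors that bind incoming proteins on the cytosolic face, while Tomm22, also a receptor, was not called. Tomm70a (chromosome 16, 57121703 to 57156705, GRCm38), the receptor for carrier proteins delivered by cytosolic chaperones, stood at 93.3 and 112.9 CPM in the knockout lenses and at 149.3, 144 and 157 CPM in the controls. The groups did not overlap, and the log2 fold change was -0.54 (SE 0.10, edgeR adjusted p = 0.019). Tomm20 (chromosome 8, 126930667 to 126945844), the receptor for presequences, was at 67.6 and 78.0 CPM in the knockouts, against 95.2, 107 and 94.5 CPM in the controls. Its log2 fold change was -0.44 (SE 0.098, edgeR adjusted p = 0.028), and knockout replicate 2 lay nearest to the controls. After removal of the length and GC trends it missed the threshold (-0.35, edgeR adjusted p = 0.057).

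The channel and the small subunits of the TOM complex did not pass the test. Tomm40, the beta-barrel channel, was at 43.4 and 43.0 CPM in the knockout lenses and 47.1, 46.0 and 40.5 CPM in the controls, so the knockout values lay inside the control range (log2 fold change -0.05, SE 0.099, edgeR adjusted p = 0.77). The value was 0.04 with libraries scaled by totals only and -0.26 after removal of the length and GC trends (edgeR adjusted p = 0.064). Its paralog Tomm40l, a second channel form, was at 25.1 and 24.7 CPM in the knockouts, against 20.5, 24.5 and 21.0 CPM in the controls (log2 fold change 0.18, SE 0.12, edgeR adjusted p = 0.32). Tomm40l was the single gene of the 33 with both knockout libraries above every control. Tomm22, the central receptor that organises the complex, was at 29.3 and 34.1 CPM in the knockouts and 35.5, 44.0 and 34.6 CPM in the controls (log2 fold change -0.26, SE 0.14, edgeR adjusted p = 0.2). Tomm6, a small subunit that steadies the complex, was at 40.4 and 47.1 CPM in the knockouts and 41.3, 50.3 and 45.6 CPM in the controls. The remaining small subunits, Tomm5 and Tomm7, had log2 fold changes of -0.17 (SE 0.28) and -0.52 (SE 0.25), with overlapping groups. Tomm7 had -0.12 after removal of the length and GC trends, -0.29 without control replicate 2 and -0.30 without knockout replicate 1. Tomm34, which shares the name but is a co-chaperone of the cytosol, had 0.02 (SE 0.10).

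Samm50, the core of the complex that inserts beta-barrel proteins into the outer membrane, was at 41.7 and 50 CPM in the knockout lenses and 52.3, 58.7 and 49.0 CPM in the controls. The groups overlapped and it did not pass the test (log2 fold change -0.22, SE 0.12, edgeR adjusted p = 0.22). After removal of the length and GC trends its log2 fold change was -0.40 (edgeR adjusted p = 0.089).

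None of the 6 genes for small chaperones of the intermembrane space was called by edgeR, DESeq2 or limma-voom. An unadjusted edgeR p under 0.05 was found for 2 of them, a share near the 35.8% of all genes tested. Timm9, which pairs with Timm10 in a ring that shields hydrophobic segments, was at 11.2 and 10.3 CPM in the knockout lenses and 15.4, 14.3 and 14.1 CPM in the controls, without overlap (log2 fold change -0.44, SE 0.14, edgeR adjusted p = 0.066). After removal of the length and GC trends its log2 fold change was -0.18 (edgeR adjusted p = 0.47). The partner, Timm10, had a log2 fold change of 0.02 (SE 0.28), at under 6 CPM in every library. Timm8a1, the mouse counterpart of the human deafness-dystonia gene, was at 2.43 and 2.30 CPM in the knockouts and 4.15, 4.17 and 3.34 CPM in the controls (log2 fold change -0.72, SE 0.27, edgeR adjusted p = 0.095). The paralog Timm8b was at 15.2 and 20.4 CPM in the knockouts and 16.1, 27.6 and 20.9 CPM in the controls, with overlap. Timm13, the partner of the Timm8 proteins, had a log2 fold change of -0.17 (SE 0.15), and Timm10b, which docks the ring on TIM22, one of 0.15 (SE 0.19).

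In the TIM22 complex, Timm29, a subunit known from animals, was at 51.7 and 53.2 CPM in the knockout lenses and 62.6, 60.5 and 64.4 CPM in the controls. The groups did not overlap, but the difference did not pass (log2 fold change -0.25, SE 0.081, edgeR adjusted p = 0.063). After removal of the length and GC trends it was called lower (-0.28, edgeR adjusted p = 0.043). Timm22, the channel itself, had a log2 fold change of 0.09 (SE 0.15).

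Of the 5 genes of the TIM23 complex, 0 were called by edgeR, DESeq2 or limma-voom with all libraries. While 35.8% of all genes tested had an unadjusted edgeR p under 0.05, 1 of these 5 did. That gene was Timm17a, one of a pair of alternative core subunits. It was at 25.2 and 30.6 CPM in the knockout lenses and 31.6, 37.9 and 37.0 CPM in the controls (log2 fold change -0.35, SE 0.13, edgeR adjusted p = 0.096), and knockout replicate 2 lay just under the lowest control. Without knockout replicate 2 it was called lower (-0.50, edgeR adjusted p = 0.049), and without knockout replicate 1 it had -0.21. Timm17b, the other form, was at 16.2 and 18.4 CPM in the knockouts and 11.9, 16.6 and 17.3 CPM in the controls (log2 fold change 0.18, SE 0.18). The channel Timm23 had a log2 fold change of -0.22 (SE 0.24), the presequence receptor Timm50 one of 0.07 (SE 0.13), and Timm21, which links TIM23 to the TOM complex, one of -0.11 (SE 0.21). These 3 genes overlapped between the groups.

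The import motor held 1 called gene of 4. Hspa9 (chromosome 18), the mitochondrial Hsp70 also called mortalin, was at 163 and 200.1 CPM in the knockout lenses, against 271, 273 and 284 CPM in the controls. Both knockout libraries lay well under the lowest control, with a mean of 182 ± 26 CPM (SD, n = 2) against 276 ± 7.4 CPM (SD, n = 3), and the log2 fold change was -0.60 (SE 0.10, edgeR adjusted p = 0.015). Its helpers did not pass. Grpel1, the nucleotide exchange factor that resets Hspa9, had a log2 fold change of -0.07 (SE 0.11), and Timm44, which tethers Hspa9 to the channel, had -0.08 (SE 0.15). Grpel1 changed sign to 0.01 when libraries were scaled by totals only. Dnajc19, a J-protein of the inner membrane, had -0.27 (SE 0.23) at under 5 CPM in each library.

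The processing peptidase is a pair of subunits. Pmpca (chromosome 2, 26389339 to 26397122), the subunit that recognises presequences, fell to 143 and 155 CPM in the knockout lenses, against 192, 196 and 181 CPM in the controls (log2 fold change -0.35, SE 0.082, edgeR adjusted p = 0.032). Pmpcb, the catalytic subunit, was at 40.4 and 46.8 CPM in the knockouts and 48.5, 49.6 and 52.3 CPM in the controls. Its groups did not overlap either, but it did not pass (log2 fold change -0.20, SE 0.099, edgeR adjusted p = 0.18), and its fold change was 0.02 with the length and GC trends removed.

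Hspd1 had the lowest p of the 33 genes. It encodes Hsp60, the barrel of the matrix chaperonin, and lies on chromosome 1 from 55077835 to 55088243. Its level was 129.8 and 172 CPM in the knockout lenses, against 242, 253 and 256 CPM in the controls. The knockout mean was 151 ± 30.0 CPM (SD, n = 2) and the control mean 250.4 ± 7.39 CPM (SD, n = 3), with no overlap between the groups. The knockout over control difference was -0.73 on the log2 scale (SE 0.12), with an edgeR adjusted p = 0.014. The call was lost in 3 of 13 alternative fits, and its adjusted p ran from 5.9e-07 to 0.066 over them.

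Hspe1, which encodes Hsp10, the lid of the same chaperonin, starts on the opposite strand at 55088132, so the first exons of the 2 genes overlap. Its raw counts were 124 and 225 in the knockouts and 220, 362 and 345 in the controls. On the CPM scale these were 8.87 and 16.1 in the knockouts and 17.2, 27.5 and 26.2 in the controls. Knockout replicate 2 and control replicate 1 were close together, and Hspe1 missed the threshold (edgeR adjusted p = 0.06), although its log2 fold change of -0.92 (SE 0.28) was the lowest of the 33. DESeq2, the replicate block and the fits without control replicate 1 or knockout replicate 2 called it lower, and its adjusted p ran from 0.0093 to 0.27 over 13 alternatives. Without knockout replicate 1 its log2 fold change was -0.55. GENCODE names 5 pseudogenes after Hspd1 and 6 after Hspe1, and reads shared with such copies make single values uncertain.

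**Figure D2:**
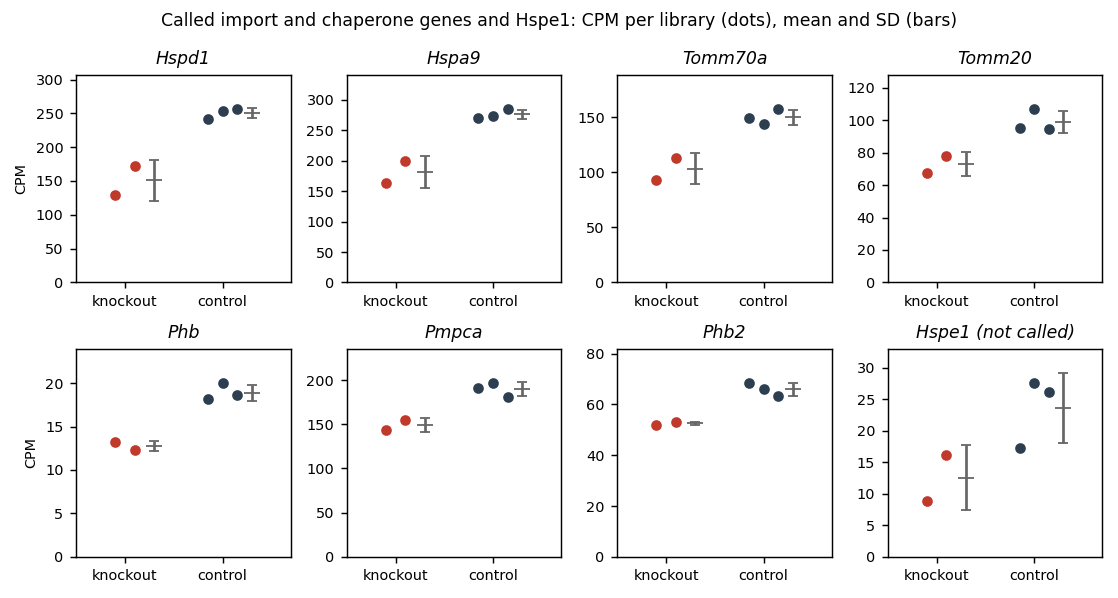
CPM of the 7 called genes and of Hspe1 in each library, knockout (red) left of control (dark). Horizontal marks with bars are the mean and SD of 2 knockout and 3 control libraries, and each vertical axis starts at 0. For all 8 genes both knockout dots lie under every control dot, and for Hspe1 the gap between 16.1 and 17.2 CPM is narrow. The 7 called genes were picked by a test on these same values, which favours this order. It was also seen for 27% of all genes tested.

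The prohibitins, a group of 2 genes, were the one group in which every gene was called. Phb and Phb2 form a ring-shaped scaffold in the inner membrane that steadies newly imported proteins. Phb (chromosome 11, 95666957 to 95680773) was at 13.2 and 12.3 CPM in the knockout lenses and 18.2, 20.0 and 18.6 CPM in the controls (log2 fold change -0.57, SE 0.13, edgeR adjusted p = 0.03). Phb2 (chromosome 6, 124712336 to 124716950) was at 52.1 and 52.9 CPM in the knockouts and 68.3, 66 and 63.4 CPM in the controls (log2 fold change -0.33, SE 0.081, edgeR adjusted p = 0.035). The knockout libraries were close to each other for both genes. Of the 13 alternative fits, 7 called Phb and 5 called Phb2. With the replicate block neither was called (edgeR adjusted p = 0.071 for Phb and 0.06 for Phb2). Leaving out either knockout replicate kept both fold changes between -0.61 and -0.31, with adjusted p of 0.055 to 0.18.

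Promoter windows of 300 bases, from 250 before the start to 50 after it, were read from RefSeq (GRCm38.p6) and searched for CACGTG, the E-box that MYC and MAX bind, which reads the same on both strands. A window was found for 29 of the 33 genes, and those of Hspd1, Tomm20, Phb, Timm9, Timm10 and Timm8a1 held the motif. This was 20.7% of the genes with a window, and 3 of the 6 called genes with a window. Of all 32851 RefSeq windows, 7.15% held the motif, and 12% of the 9319 tested genes with a window had it in at least 1 window, against 15.7% of the 809 called lower. The windows of 3 called genes with the motif are shown first, followed by that of Hspe1, which faces Hspd1 and has no match in it. A match is a description of the letters and not evidence of binding. Each window reads 5′ to 3′ along its gene, with the E-box in capitals.
Hspd1, chr1:55088194-55088493, minus strand: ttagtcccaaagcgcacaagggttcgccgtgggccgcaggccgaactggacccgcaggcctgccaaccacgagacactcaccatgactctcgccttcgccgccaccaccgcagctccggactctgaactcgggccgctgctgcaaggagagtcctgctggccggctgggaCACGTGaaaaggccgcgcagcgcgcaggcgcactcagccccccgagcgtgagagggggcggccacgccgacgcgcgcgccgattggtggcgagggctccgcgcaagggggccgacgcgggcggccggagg
Tomm20, chr8:126945872-126946171, minus strand: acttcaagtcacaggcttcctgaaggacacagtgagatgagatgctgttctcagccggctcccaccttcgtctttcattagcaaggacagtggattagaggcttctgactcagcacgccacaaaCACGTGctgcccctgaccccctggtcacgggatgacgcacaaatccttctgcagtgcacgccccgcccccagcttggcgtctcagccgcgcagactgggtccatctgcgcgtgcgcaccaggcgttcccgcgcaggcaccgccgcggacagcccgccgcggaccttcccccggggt
Phb, chr11:95666707-95667006, plus strand: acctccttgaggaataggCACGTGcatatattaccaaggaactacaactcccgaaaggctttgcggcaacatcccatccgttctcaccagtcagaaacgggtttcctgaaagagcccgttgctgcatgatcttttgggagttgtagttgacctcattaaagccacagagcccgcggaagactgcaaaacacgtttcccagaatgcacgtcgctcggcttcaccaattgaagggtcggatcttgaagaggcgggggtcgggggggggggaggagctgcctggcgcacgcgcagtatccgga
Hspe1, chr1:55087898-55088197, plus strand: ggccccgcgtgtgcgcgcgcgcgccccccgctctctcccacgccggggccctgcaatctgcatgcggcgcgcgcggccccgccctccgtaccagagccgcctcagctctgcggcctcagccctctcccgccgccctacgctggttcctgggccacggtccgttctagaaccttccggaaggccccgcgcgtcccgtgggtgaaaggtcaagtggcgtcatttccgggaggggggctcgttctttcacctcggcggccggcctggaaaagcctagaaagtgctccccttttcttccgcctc

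Counted from the start of the gene, with negative positions before it, the motif lay at -80 for Hspd1, -126 for Tomm20 and -232 for Phb. The table lists a second start for Hspd1, whose window lacks it. The Hspe1 window ends at 55088197 and the Hspd1 window with the motif begins at 55088194. The motif of Hspd1 therefore lies beyond the bases read for Hspe1. The called genes Tomm70a, Pmpca and Phb2 had no match within their windows, and Timm10, with a match 29 bases after its start, had a log2 fold change near 0 as given above.

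Ratios of counts within a library do not depend on how libraries are scaled, and 8 pairs were compared. An exact two-sided permutation test of 2 against 3 libraries cannot go below p = 0.2. The Timm17b to Timm17a ratio was 0.645 and 0.602 in the knockout lenses, against 0.377, 0.439 and 0.467 in the controls, so the groups did not overlap (log2 difference 0.55, exact permutation p = 0.2). The Hspa9 to Grpel1 ratio was 6.16 and 6.84 in the knockouts and 10.2, 8.90 and 9.30 in the controls, again without overlap (log2 difference -0.54, exact permutation p = 0.2). Tomm40l to Tomm40 was 0.579 and 0.576 in the knockouts and 0.434, 0.533 and 0.519 in the controls. The Phb to Phb2 ratio was 0.253 and 0.233 in the knockouts and 0.266, 0.302 and 0.293 in the controls. Tomm20 to Tomm22 was 2.31 and 2.29 in the knockouts and 2.68, 2.42 and 2.73 in the controls. These 3 also did not overlap (exact permutation p = 0.2 each), and with 8 pairs none could pass an adjustment. For Hspd1 to Hspe1 the groups overlapped, at 14.6 and 10.7 in the knockouts and 14, 9.21 and 9.78 in the controls (exact permutation p = 0.4). Pmpca to Pmpcb and Timm8b to Timm8a1 overlapped too.

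**Figure D3:**
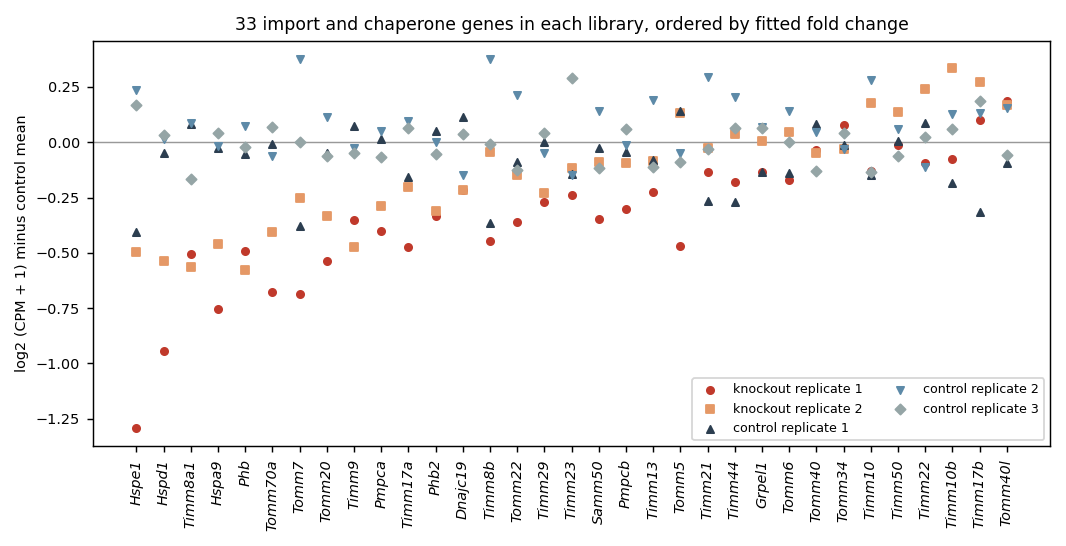
Each of the 33 genes in each library as log2 (CPM + 1) minus the control mean, ordered from the lowest fitted fold change on the left to the highest on the right. Red circles and orange squares are knockout replicates 1 and 2, and the blue and grey symbols are the controls. Knockout replicate 1 lies below knockout replicate 2 for 27 of the 33 genes.

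The 2 knockout libraries differed in how far they lay from the controls. Knockout replicate 1 was below knockout replicate 2 for 27 of the 33 genes. In the fit without knockout replicate 2 the log2 fold changes of Hspd1, Hspa9 and Tomm70a were -0.95, -0.76 and -0.69, and without knockout replicate 1 they were -0.54, -0.46 and -0.41. Mycn followed the same order, with -1.39 and -0.87. Muscle and mesenchyme markers were higher in knockout replicate 1, as given above. For mesenchyme edgeR called 6 of 13 tested markers higher, while DESeq2 called 4 and limma-voom 2. For muscle edgeR and limma-voom called 0 of 8 and DESeq2 1, with 6 at an unadjusted edgeR p under 0.05 (35.8% of all genes tested). Retina markers were highest in knockout replicate 2, with 8 of 10 called higher by edgeR and DESeq2 and 4 by limma-voom, and sums of 78.4 and 190.4 CPM in the knockouts, against 35.7 to 40.0 CPM in the controls. Of 15 lens markers, 6 (40%) were called lower by edgeR. Over the whole table edgeR called 8.51% of genes lower and 7.98% higher. The part of these cell types in the levels of the import genes was not tested.

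Markers of blood, vessel and pigment cells were measured as well, and their edgeR calls stand beside 8.51% lower and 7.98% higher over the whole table. Endothelial markers summed to 261 and 269.5 CPM in the knockouts and 259 to 309 CPM in the controls (1 of 9 lower), and macrophage markers to 33.4 and 32.7 CPM, against 18.2 to 21.8 CPM (1 of 6 higher). Red blood cell markers summed to 91.9 and 104.6 CPM in the knockouts and 125.6 to 160.1 CPM in the controls (1 of 5 tested lower), with Hba-a1, Hba-a2, Hbb-bt and Hbb-b1 listed at 0 in all libraries. Pigment epithelium markers summed to 31.6 and 42.9 CPM in the knockouts and 39.2 to 49.9 CPM in the controls (1 of 3 tested higher and 1 lower). The part of these cells was not tested either.

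Fold changes over the whole table followed the GC content of the transcripts, with a Spearman's rho of 0.45 across the 11965 tested genes with a known value (99.4%). Across the 33 import and chaperone genes rho was 0.43 as a description, since the genes share the same 5 libraries. The 7 called genes had a GC content of 40.7% to 56.8% (median 46.8%) and the other 26 a median of 49.8%, against 50.1% for all genes tested. Tomm70a, at the low end, had a log2 fold change of -0.31 with the length and GC trends removed (edgeR adjusted p = 0.04), while Phb, at 55.5%, had -0.61 (edgeR adjusted p = 0.022). Hspd1 had -0.57 and Hspa9 -0.44 in that fit, and both remained called.

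**Figure D4:**
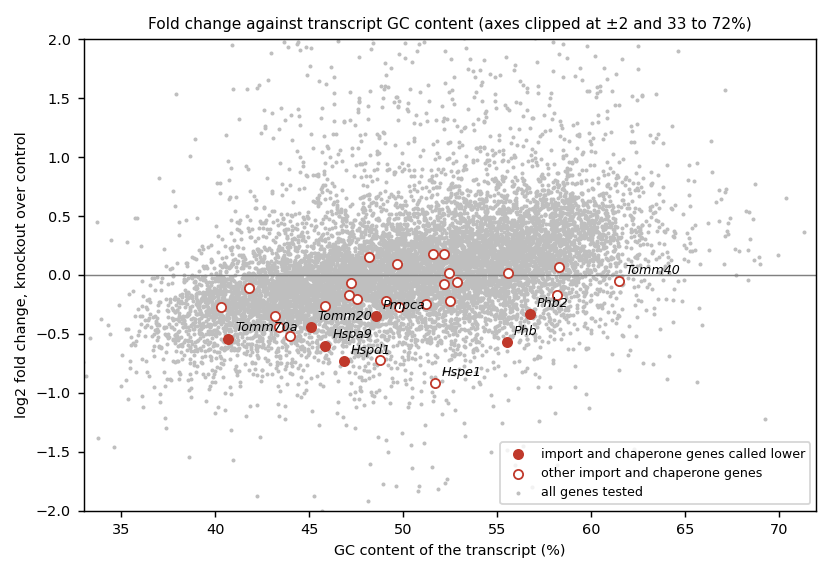
Log2 fold change, knockout over control, against the GC content of the longest coding transcript for all genes tested (grey) and the 33 import and chaperone genes (red, filled where called lower). The axes are clipped at 2 on the log2 scale and at 33 to 72% GC. The grey cloud rises to the right, and Phb and Phb2 lie within it, at -0.57 and -0.33 and at 55.5% and 56.8% GC.

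Levels per kilobase of the longest coding transcript allow the genes to be ranked. Hspd1 was highest among those compared, at 62.3 CPM per kb in the knockout lenses and 103 CPM per kb in the controls, followed by Hspa9 at 59.6 CPM per kb in the knockouts and 90.5 CPM per kb in the controls. The ranking depends on which transcript is used, since the length of the form expressed in lens is not known here.

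Other genes of mitochondrial import and upkeep were read from 5 lists. Of 17 further import, insertion and assembly genes, 4 (23.5%) were lower and 0 higher, against 8.51% lower and 7.98% higher in the whole table, with a median log2 fold change of -0.29. Among them Hsp90ab1, a cytosolic chaperone that hands proteins to Tomm70, was at 1652 and 1846 CPM in the knockout lenses and 2431, 2679 and 2575 CPM in the controls (log2 fold change -0.55, SE 0.099, edgeR adjusted p = 0.016). Chchd4, the oxidoreductase that traps small proteins such as the Timm chaperones in the intermembrane space, was at 12.8 and 16 CPM in the knockouts and 24.5, 25.8 and 22.3 CPM in the controls (log2 fold change -0.75, SE 0.15, edgeR adjusted p = 0.02). Timmdc1, an assembly factor of respiratory complex I, was at 28.2 and 34.8 CPM in the knockouts and 41.5, 45.6 and 42.7 CPM in the controls (log2 fold change -0.46, edgeR adjusted p = 0.038, and -0.34 with 0.055 after removal of the length and GC trends).

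Of 15 genes for peptidases and quality-control proteases, 2 (13.3%) were lower and 0 higher (median log2 fold change -0.16), a share near the 8.51% of the whole table. Pitrm1, which degrades cleaved presequences, was at 130.9 and 140.6 CPM in the knockout lenses and 202, 197 and 209.9 CPM in the controls (log2 fold change -0.58, SE 0.080, edgeR adjusted p = 0.01). Yme1l1, an ATP-driven protease of the inner membrane, was at 102 and 132 CPM in the knockouts and 160.3, 155 and 174 CPM in the controls. Both knockout libraries lay below every control for each. The log2 fold change of Yme1l1 was -0.48 (edgeR adjusted p = 0.036), but -0.08 after removal of the length and GC trends (edgeR adjusted p = 0.52), where Pitrm1 kept its call at -0.53.

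Of 9 tested genes for the MICOS complex, which shapes the inner membrane, and for membrane fusion and fission, 3 (33.3%) were lower and 0 higher (median -0.22), against 8.51% lower in the whole table. Dnm1l, which drives fission, was at 117 and 128 CPM in the knockout lenses and 183, 193 and 194 CPM in the controls (log2 fold change -0.63, SE 0.082, edgeR adjusted p = 0.0094). The MICOS subunits Chchd3 and Immt had log2 fold changes of -0.48 (SE 0.096) and -0.32 (SE 0.082). After removal of the length and GC trends Dnm1l had -0.32 and remained called (edgeR adjusted p = 0.023), whereas Chchd3 at -0.26 and Immt at -0.23 were not (edgeR adjusted p = 0.065 and 0.063). Of 16 tested genes for mitochondrial mass and biogenesis, 4 (25%) were lower and 1 higher (median -0.20). Slc25a5, an ADP/ATP carrier, was at 62.5 and 73.1 CPM in the knockouts and 95.2, 103 and 99.7 CPM in the controls. Gabpa, a transcription factor for nuclear genes of mitochondria, and Vdac1, the outer membrane pore, had log2 fold changes of -0.34 (SE 0.092) and -0.28 (SE 0.079). After removal of the length and GC trends Slc25a5 had -0.31 against -0.55 (edgeR adjusted p = 0.03 against 0.015), Gabpa had -0.10 and Vdac1 -0.21 (edgeR adjusted p = 0.39 and 0.073). Gabpa, Vdac1 and Immt, and Timmdc1 of the import list, also lost their calls with scaling by totals only. Yme1l1 lost its call without control replicate 1 (edgeR adjusted p = 0.053), and Gabpa with limma-voom (adjusted p = 0.052). Without control replicate 2, edgeR called none of the genes named here from the lists of import, peptidase, MICOS and mass genes, and without control replicate 3 or knockout replicate 1 only Pitrm1 and Dnm1l.

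The last list held 6 genes, the chaperone genes Trap1, Dnaja3, Hscb and Clpb, and Tsfm and Abcb10, which are not chaperones. Of these 6, 0 were called by edgeR, DESeq2 or limma-voom, with a median log2 fold change of -0.03. An unadjusted edgeR p under 0.05 was found for 2 of them in opposite directions, Trap1 and Abcb10, and for 35.8% of all genes tested. Abcb10 had a positive log2 fold change of 0.34 (SE 0.13). Trap1, a matrix Hsp90, was at 65.7 and 60.2 CPM in the knockout lenses and 69.9, 79.4 and 71.7 CPM in the controls (log2 fold change -0.23, SE 0.092, edgeR adjusted p = 0.12). Dnaja3, a matrix J-protein, had -0.09 (SE 0.088).

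**Figure D5:**
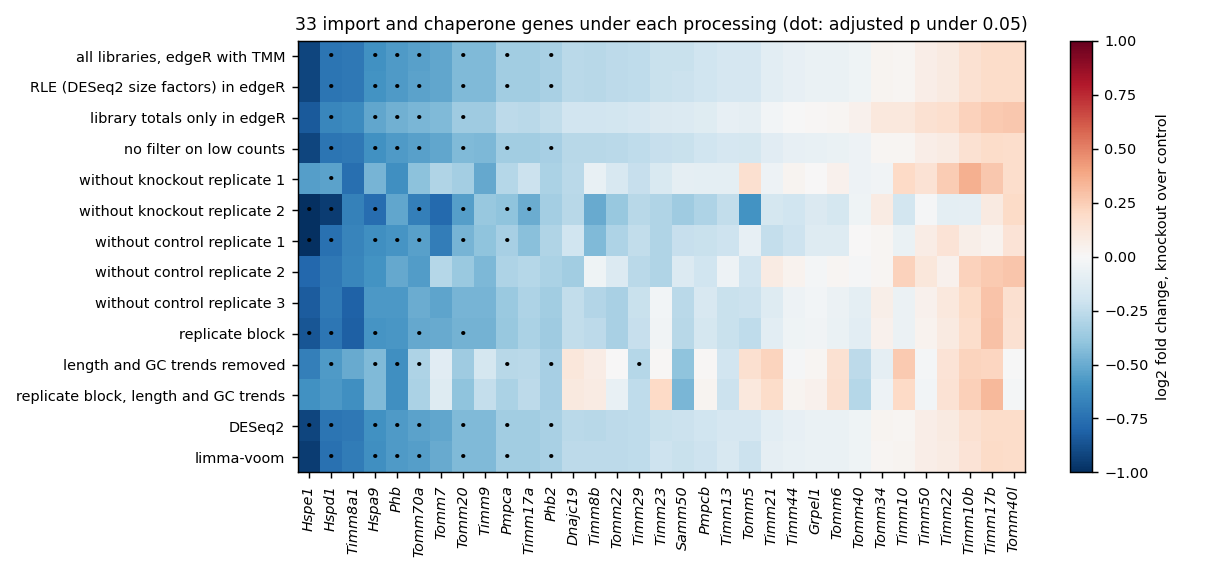
Log2 fold changes of the 33 genes (columns, lowest on the left) in the reported fit and 13 alternatives (rows), with blue for lower in the knockout and red for higher, and a dot where the adjusted p was under 0.05. Hspd1, Hspa9, Tomm70a, Tomm20, Phb, Pmpca and Phb2 are blue in every row. The dots vanish without control replicate 2 or 3, and with the replicate block and the length and GC trends removed.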

How the data were processed

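RNA-seq gene counts of 2 knockout and 3 control lens libraries were analysed, grouped by sample title. The authors deposited raw counts per gene symbol. The build mm10, HTSeq 0.6.1, TopHat2 2.0.13, Trim Galore 0.3.7, DESeq2 and Cufflinks 2.2.1 appear, without roles, per the submitters' processing notes. The sources used here do not give the strand setting or the choice of symbols. Exons of 18 of the 33 genes, 4 of the 7 called, overlap another gene in GENCODE vM21, and without a stated strand setting such reads cannot be told apart.

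Counts were fitted in R 4.3.3 with edgeR 4.0.16: filterByExpr (minimum count 10, 335 symbols removed), TMM scaling, glmQLFit and glmQLFTest without covariates, and Benjamini and Hochberg adjustment over 12035 genes. The SE was taken as the size of the log2 fold change over root F. The fit was run on simulated counts with the same spread setting for every gene and no GC trend. That run does not test the calls in these libraries. Alternatives were RLE or total-count scaling, no filter, DESeq2 1.42.0, limma-voom 3.58.1, each library left out, a replicate block, and a loess trend on transcript length and GC content (span 0.3) as an offset.

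Libraries of a group differed by more than sampling noise (chi-square over degrees of freedom 9.98 to 23.39). Each was counted as 1 sample, and the spread behind each p-value is that between pools, which may be technical. The genes and lists were chosen with earlier results of these data known. Values per library are given for called genes, the 6 uncalled genes with the highest mean CPM and 6 pairs of related genes, and for up to 3 called genes of each pathway list, or 2 where 0 were called. Per-library values of Timm9, and those of single cell-type lists, were added after they were seen.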

Additional observations from a re-analysis of the deposited data

How the results depend on the processing

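Over 13 alternatives the 7 called genes kept a negative fold change, and 26 of 33 fold changes stayed negative with RLE scaling, without the filter, with DESeq2 and with limma-voom. The replicate numbers did not pair the libraries (correlations of same-numbered deviations -0.09 and 0.01). With a replicate block 5 of the 33 genes were called lower, 4 of them among the 7, and 522 genes of the whole table were lower and 473 higher, against 1024 and 960 without it. With the block and the length and GC trends removed, edgeR called 0 of the 33 genes (11 at an unadjusted p under 0.05), with 132 lower and 110 higher in the whole table. In the reported fit 35.8% of all genes tested had an unadjusted edgeR p under 0.05. That share is not given here for the fit with the block and the trends removed. With the length and GC trends removed alone, 443 genes were higher. Scaling by totals alone shifted the median of all genes by 0.09 and gave 637 lower and 1511 higher, so 70.3% of calls were higher, against 48.4%, and Phb2 was no longer called. With the block, Yme1l1, Timmdc1, Immt, Gabpa and Vdac1 lost their calls too. Removing the length and GC trends gave 39.1%. Over the 5 fits that leave out 1 library, 0 to 7 of the 33 genes were called lower, with 17 to 1291 lower and 21 to 1426 higher in the whole table. The cause was not tested.

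Uncalled genes changed sign. After removal of the length and GC trends, the log2 fold change was 0.11 for Dnajc19, 0.022 for Grpel1, 0.015 for Pmpcb, 0.223 for Timm21, 0.014 for Timm23, -0.022 for Timm50, 0.072 for Timm8b, 0.003 for Tomm22, -0.091 for Tomm34, -0.002 for Tomm40l, 0.163 for Tomm5 and 0.15 for Tomm6. With the replicate block added to that, the log2 fold change was 0.094 for Dnajc19, 0.046 for Grpel1, 0.029 for Pmpcb, 0.181 for Timm21, 0.197 for Timm23, 0.026 for Timm44, -0.027 for Timm50, 0.079 for Timm8b, -0.051 for Tomm34, -0.016 for Tomm40l, 0.103 for Tomm5 and 0.164 for Tomm6. With scaling by totals only, the log2 fold change was 0.013 for Grpel1, 0.041 for Tomm40 and 0.018 for Tomm6. With the replicate block alone, the log2 fold change was -0.055 for Timm10. With 1 library left out it ran from -0.145 to 0.003 for Grpel1, -0.184 to 0.227 for Timm10, -0.092 to 0.359 for Timm10b, -0.239 to 0.082 for Timm21, -0.1 to 0.254 for Timm22, -0.205 to 0.037 for Timm44, -0.013 to 0.143 for Timm50, -0.032 to 0.079 for Tomm34, -0.1 to 0.002 for Tomm40, -0.596 to 0.16 for Tomm5 and -0.179 to 0.042 for Tomm6. The direction of these genes is not settled by 5 libraries.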
